A study of Mus musculus with 10 samples.

Results

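Chromatin accessibility on days 6 and 7 of a mouse stem cell differentiation was set against that on days 2 and 3 in 1 contrast over all merged regions. The comparison takes 8 of the 10 ATAC-seq libraries of the study, 4 on each side, chosen by the labelled day and by the absence of Gdf11. Day 6 without Gdf11 had 2 libraries and day 7 without Gdf11 had 2, against 2 of day 2 and 2 of day 3. The remaining 2 libraries, of day 7 with 50 ng/ml human Gdf11 for 24 h, were not part of the contrast. They did enter the merged regions, the filter for tested regions, the scaling and the estimate of spread. All libraries came from ES-Bruce4, a C57BL/6 embryonic stem cell line, so a single wild-type line stands for each day. The stem cells had been kept on mouse embryo fibroblasts, depleted of them once and put into N2B27 medium with 10 ng/ml bFgf at day 0. CHIR99021, an inhibitor of GSK3 that activates Wnt signalling, was added at 5 µM on day 2, and the cells were split on day 3. The labels call day 2 an epiblast stem cell and days 3, 6 and 7 neuromesodermal progenitors. They do not say whether day 2 was collected before CHIR99021 was added, nor whether libraries of a day came from separate cultures, so p-values measure only the spread between these libraries.

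Neuromesodermal progenitors are bipotent cells at the tail end of the embryo that feed both the spinal cord and the paraxial mesoderm. In culture they are reached from pluripotent cells through an epiblast state by Fgf and Wnt signals. Along this path, pluripotency and Nodal genes are known to be switched off and Hox genes to be opened from the 3′ end of each cluster to the 5′ end. ATAC-seq reads come from places where a transposase can insert adapters into DNA, so a count measures how open a region is and not how much RNA a gene makes. In such bulk libraries, fewer cells of a type and less open chromatin per cell cannot be told apart.

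The deposited counts cover 246799 merged regions, of which 173175 held enough counts to be tested. Totals over all regions lay between 7403576 and 12335735 counts in the 4 libraries of days 6 and 7, against 7150334 to 11246030 in those of days 2 and 3. Mitochondrial regions took 9.25% to 12.9% of the counts in the libraries of days 6 and 7 and 10.1% to 13.4% in those of days 2 and 3, and replicate 2 was shallower than replicate 1 on every day. Counts were scaled to CPM, the counts of a region relative to the library's scaled total, with edgeR's TMM factors, which correct for composition. A region or gene was called where the adjusted p of edgeR's quasi-likelihood test was below 0.05, and it is named separating where, in addition, all 4 libraries of one side lay above all 4 of the other. Counts were joined to positions by rank in the merged peak list. Joined so, no region with a peak of a library's own had a count of 0 in that library. A gene's value is the sum over regions nearest to its RefSeq span within 50 kb, on build mm10. Where 4 values of a side are given, they are replicates 1 and 2 of the earlier day and then of the later day. Log2 changes are days 6 and 7 over days 2 and 3 and carry their standard error.

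Of the 173175 regions tested, 69144 (39.9%) were called, of which 40009 (23.1%) were higher and 29135 (16.8%) lower on days 6 and 7. The libraries did not overlap at 26702 regions that were higher (15.4%) and at 17850 that were lower (10.3%). The median log2 change was 2.12 at the higher and -1.43 at the lower separating regions. At least a 4-fold change was seen at 14652 of the higher and 2934 of the lower separating regions, and at least 8-fold at 5162 and 314. Among 18992 genes tested, 9796 (51.6%) were called, 5153 (27.1%) higher and 4643 (24.4%) lower, and 3050 (16.1%) separated higher and 2919 (15.4%) lower. With scaling by library size alone, 2382 genes separated higher and 3470 lower, so that 40.7% of the separating genes were higher in place of 51.1%. Where all 4 libraries of a side were treated as 1 group, so that the spread between its days counted as error, 43662 regions were called in place of 69144.

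The days inside a side were not alike. Among the 26702 higher regions, 4345 were also called higher on day 3 than on day 2 and 130 lower, and 1246 were called higher on day 7 than on day 6 and 12 lower. Of the 17850 lower regions, 2245 were called lower on day 3 than on day 2 and 229 higher, and 63 were called lower on day 7 than on day 6 and none higher. In each of the 4 pairings of a late with an early day, 11185 regions were called higher and 4859 lower. These pairings share libraries, so their counts are not independent of each other.

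The authors' peak lists, made per library, gave a second readout of the same reads. All 4 libraries of days 6 and 7 and none of days 2 and 3 had a peak at 4787 of 246799 regions (1.94%). Peaks in all 4 libraries of days 2 and 3 and in none of days 6 and 7 were found at 2973 regions (1.2%). By counts, 4704 of the first set separated higher and 2568 of the second lower, with median log2 changes of 2.72 and -1.63. Promoter windows, taken from 250 bases before to 50 after a RefSeq gene start, were touched by 0.606% of the first set and 3.57% of the second, against 5.06% of all merged regions.

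**Figure D1:**
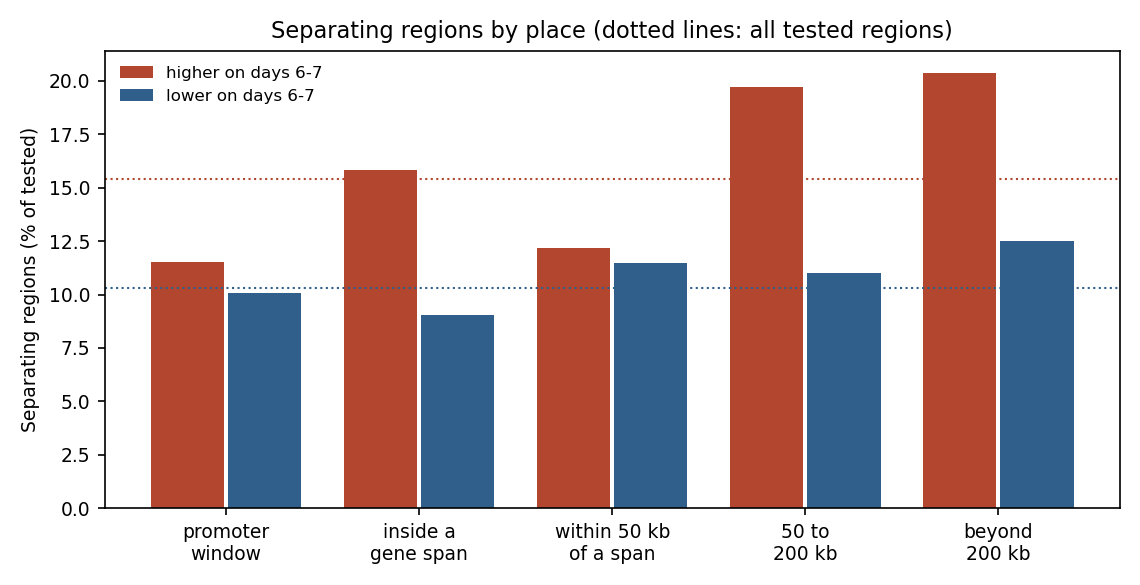
Percent of tested regions that separated higher (left bar of each pair) or lower (right bar) on days 6 and 7, by distance from protein-coding genes, with dotted lines for all tested regions at 15.4% and 10.3%. Regions more than 50 kb from any gene span had the tallest bars for higher accessibility, 19.7% and 20.4%, and promoter windows had 11.5%.

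Shares differed by place. On promoter windows 11.5% of 12108 tested regions separated higher and 10.1% lower, and inside gene spans 15.8% of 79268 separated higher and 9.06% lower. Between 50 and 200 kb from the nearest span, the shares were 19.7% higher and 11.01% lower of 20892 regions. Beyond 200 kb they were 20.4% and 12.5% of 15043. Promoter regions were also wider and deeper than the rest, with a median of 17.4 CPM against 1.65 to 2.02 CPM elsewhere, and the part of depth in these shares was not tested. By autosome, the share that separated higher ran between 11.3% (chromosome 11) and 18.2% (chromosome 6).

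Genes of the pluripotent and epiblast states lay on the lower side. Of 18 genes of naive pluripotency, the state of the early blastocyst and of stem cells in culture, 9 separated lower and none higher, with a median log2 change of -0.46, against 0.02 over all genes. Among 19 genes of formative and primed epiblast, the state after implantation, 12 separated lower and 1 higher, Zic2, with a median of -0.71. The lower shares were 50% of the naive and 63.2% of the epiblast genes, beside 15.4% of all genes, of which 16.1% separated higher. With library-size scaling, cyclic loess and DESeq2, 9 to 11 of the naive and 12 or 13 of the epiblast genes separated lower. The summed level of the epiblast list was 772 to 818 CPM in the libraries of days 6 and 7, against 926 to 1315 CPM in those of days 2 and 3.

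Zfp42, a marker of naive cells also called Rex1 (chromosome 8, 43295067 to 43307009), had 32.2, 32.4, 32.6 and 27.1 CPM on days 6 and 7, against 65.3, 60.3, 71.9 and 83.3 CPM on days 2 and 3. The sides did not overlap (log2 change -1.16 ± 0.089, edgeR adjusted p = 2.36e-13), and day 7 replicate 2 was the lowest of the late libraries. Zscan10, a zinc finger gene of stem cells, had 19.6, 22.4, 21.8 and 20.9 CPM on days 6 and 7, against 72.7, 65.1, 42.1 and 40.6 CPM on days 2 and 3 (log2 change -1.34 ± 0.102, edgeR adjusted p = 1.97e-13). Pou5f1, which encodes the pluripotency factor Oct4, had 15.5, 22.98, 14.04 and 12.1 CPM on days 6 and 7, against 48.4, 49.8, 29.6 and 30.7 CPM on days 2 and 3 (log2 change -1.29 ± 0.118, edgeR adjusted p = 2.15e-11). At Zscan10 and Pou5f1 day 2 was higher than day 3, and every late library was below day 3. Nanog was lower by less, with a log2 change of -0.74. Fgf4, the ligand that stem cells make themselves, had 7.11, 8.89, 4.77 and 4.57 CPM on days 6 and 7, against 21.3, 24.3, 13.7 and 12.4 CPM on days 2 and 3 (log2 change -1.51 ± 0.16, edgeR adjusted p = 7.38e-10). Fgf5, the classical marker of the primed epiblast, had 27.8, 25.99, 24.2 and 22.98 CPM on days 6 and 7, against 67.7, 77.9, 30.8 and 29.7 CPM on days 2 and 3 (log2 change -0.89 ± 0.096, edgeR adjusted p = 8.62e-10). Its day 3 libraries were close to the late ones, so the gap between the sides was narrow.

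The strongest loss in the epiblast list was at Cldn6, a tight junction gene of early epithelia, with 4.47, 4.79, 2.43 and 2.95 CPM on days 6 and 7, against 16.1, 19.9, 12.1 and 18.04 CPM on days 2 and 3 (log2 change -2.22 ± 0.193, edgeR adjusted p = 5.38e-12). Grhl2, a factor that keeps epithelia together, changed by -0.91 and Otx2, a homeobox gene of the anterior epiblast, by -0.79 on the log2 scale. Eomes, a T-box factor of the primitive streak, had a smaller change (-0.65). Of 8 genes of the DNA methylation machinery, 2 separated lower (25%), beside 15.4% of all genes. They were the de novo enzyme gene Dnmt3b and its cofactor gene Dnmt3l. Dnmt3b had 30.8, 29.8, 26.6 and 27.8 CPM on days 6 and 7, against 71.7, 92.04, 39.3 and 49.8 CPM on days 2 and 3 (log2 change -1.06 ± 0.104, edgeR adjusted p = 1.03e-10). Dnmt3l had 5.43, 5.199, 4.86 and 4.12 CPM on days 6 and 7, against 15.7, 16.5, 10.02 and 7.505 CPM on days 2 and 3 (log2 change -1.28 ± 0.194, edgeR adjusted p = 1.02e-06). At both genes day 3 lay between day 2 and the late days. Germline genes, many of them known targets of promoter methylation, separated lower at 4 of 16 (25%) and higher at none. Over all genes 15.4% separated lower and 16.1% higher. Cyclic loess left 2 germline genes lower, and a link to the Dnmt3 genes was not tested. The 4 lower genes were Sycp3, Sycp1, Taf7l and Tdrd1. Tdrd1 had 2.397, 1.64, 1.799 and 0.884 CPM on days 6 and 7, against 4.18, 5.62, 3.06 and 2.74 CPM on days 2 and 3. Sycp3, part of the meiotic chromosome axis, had 4.79, 7.39, 3.51 and 2.36 CPM on days 6 and 7, against 16.3, 14.1, 9.09 and 10.7 CPM on days 2 and 3 (log2 change -1.53 ± 0.199, edgeR adjusted p = 5.63e-08).

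Nodal signalling, which holds the epiblast state and induces the primitive streak, lost accessibility at ligand and inhibitors alike. Nodal (chromosome 10, 61417972 to 61425338) had 22.1, 23.5, 17.99 and 15.5 CPM on days 6 and 7, against 51.2, 58.1, 48.1 and 43.3 CPM on days 2 and 3 (log2 change -1.35 ± 0.102, edgeR adjusted p = 1.47e-13). Its feedback inhibitors Lefty1 and Lefty2 followed. Lefty2 had 22.2, 22.2, 18.4 and 20.03 CPM on days 6 and 7, against 58.3, 66.7, 65.2 and 55.6 CPM on days 2 and 3 (log2 change -1.58 ± 0.1, edgeR adjusted p = 1.41e-15), and here days 2 and 3 were level. Lefty1 had 19.2, 16.1, 16.1 and 18.6 CPM on days 6 and 7, against 56.1, 50.9, 38.9 and 33.6 CPM on days 2 and 3 (log2 change -1.33 ± 0.109, edgeR adjusted p = 1.21e-12). At Nodal 6 of 7 tested regions separated lower, in an unbroken run of 17.7 kb from 61406060 to 61423726 on chromosome 10. Other members of the 29 tested genes for Nodal, activin and TGF-beta signalling were on the higher side. In this list 6 separated higher and 6 lower, 20.7% each, beside 16.1% and 15.4% of all genes. With library-size scaling 5 were higher and 9 lower. Among the higher ones were the ligand genes Tgfb2 (0.57) and Tgfb3 (0.73).

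**Figure D2:**
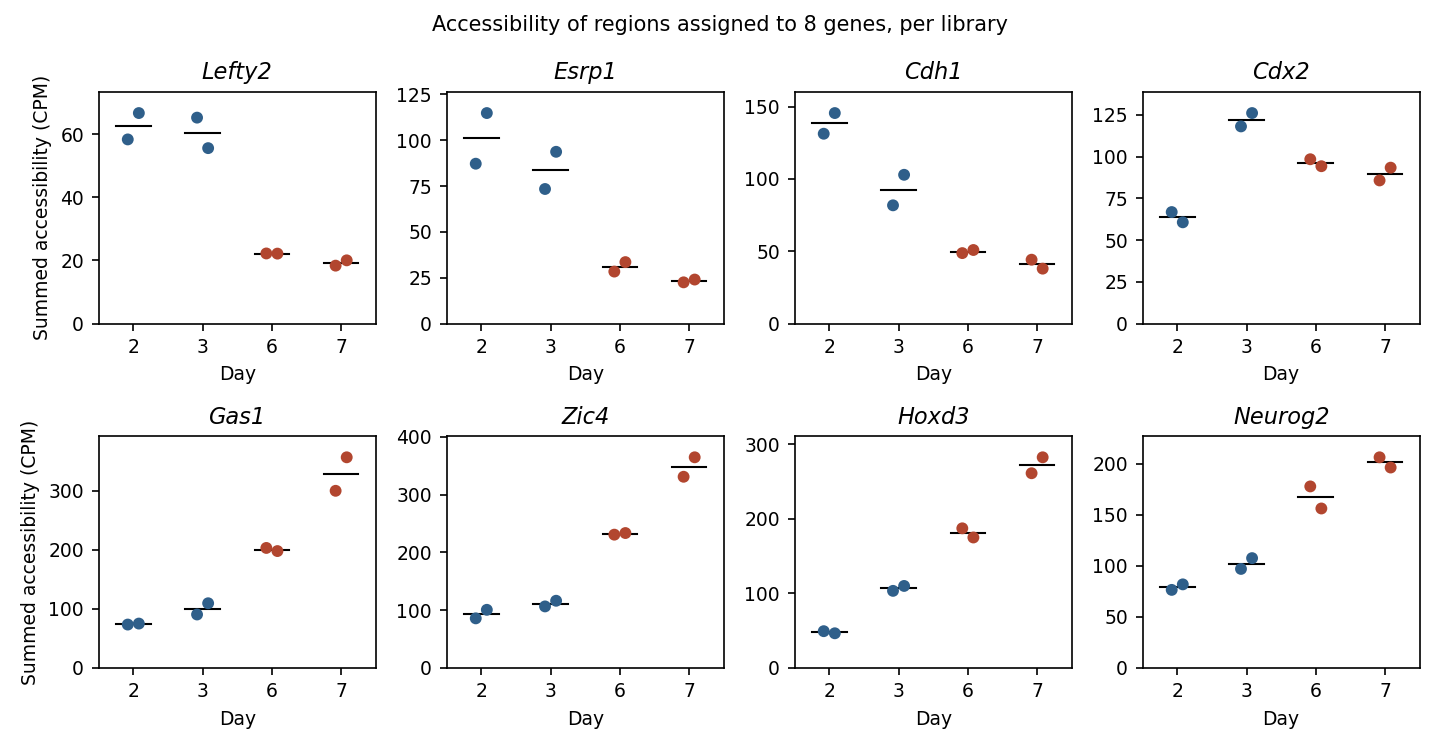
Summed accessibility in CPM (vertical axis, from 0) of the regions assigned to 8 genes, for each library of days 2, 3, 6 and 7, with bars at the mean of the 2 libraries of a day. Days 6 and 7 (red) lie below days 2 and 3 (blue) at Lefty2, Esrp1 and Cdh1 and above them at Gas1, Zic4, Hoxd3 and Neurog2, while at Cdx2 day 3 is highest and the sides overlap.

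Adhesion genes changed in both directions. Cdh1 encodes E-cadherin, which joins epithelial cells, and had 48.7, 50.9, 44.2 and 38 CPM on days 6 and 7, against 131, 146, 81.8 and 103 CPM on days 2 and 3 (log2 change -1.31 ± 0.087, edgeR adjusted p = 4.95e-15). At Cdh1 9 of 18 tested regions separated lower and none higher. Cdh3, another epithelial cadherin gene, changed by -1.11. Cdh2, which encodes the N-cadherin of neural and mesodermal cells, had 189.6, 192, 215 and 216 CPM on days 6 and 7, against 103, 100.7, 145 and 149.5 CPM on days 2 and 3 (log2 change 0.73 ± 0.065, edgeR adjusted p = 1.1e-11). Cdh11, a cadherin gene of mesenchyme, had 137, 121, 152 and 167 CPM on days 6 and 7, against 52.3, 54.5, 72.4 and 80.3 CPM on days 2 and 3 (log2 change 1.17 ± 0.075, edgeR adjusted p = 1.7e-15). At Cdh1, Cdh2 and Cdh11 day 3 lay between day 2 and the late days. Over all 23 cadherin genes tested, 5 separated higher (21.7%) and 8 lower (34.8%), beside 16.1% and 15.4% of all genes. Library-size scaling, cyclic loess and DESeq2 each gave 5 higher and 9 lower. Esrp1, a splicing factor gene of epithelia, lay outside every list and lost more than any cadherin gene, with 28.4, 33.5, 22.5 and 24.01 CPM on days 6 and 7, against 87.2, 115, 73.4 and 93.7 CPM on days 2 and 3 (log2 change -1.78 ± 0.098, edgeR adjusted p = 2.85e-17). Among 26 integrin genes 6 separated higher (23.1%) and 9 lower (34.6%). Itga3, the chain of an epithelial laminin receptor, had 25.6, 32.2, 24.3 and 24.3 CPM on days 6 and 7, against 63.6, 64.1, 45.4 and 54.4 CPM on days 2 and 3 (log2 change -1.09 ± 0.097, edgeR adjusted p = 8.43e-12), and Itgb1, the common beta chain, changed by 0.51.

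Most genes of the neural progenitor list lay on the higher side, but the wider families of neural factors did not. Of 21 genes of neural progenitors and spinal cord, 12 separated higher (57.1%) and 1 lower (4.76%), beside 16.1% and 15.4% of all genes. Their median log2 change was 0.47. Under library-size scaling, cyclic loess and DESeq2, 11 or 12 separated higher and 1 or 2 lower. Regions assigned to them separated higher at 27.7% and lower at 8.38% of 358, against 14.2% and 9.95% of all regions assigned to genes. The one lower gene was Nkx2-2, which marks the ventral spinal cord, with 63.8, 66.8, 56.9 and 54.9 CPM on days 6 and 7, against 91.7, 95.3, 79.6 and 80.97 CPM on days 2 and 3 (log2 change -0.52 ± 0.074, edgeR adjusted p = 3e-07).

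Neurog2, a proneural factor gene (chromosome 3, 127632733 to 127635636), had 178, 156, 206 and 196 CPM on days 6 and 7, against 76.3, 81.7, 96.8 and 107 CPM on days 2 and 3 (log2 change 1.03 ± 0.068, edgeR adjusted p = 4.5e-15). Its largest gain was at a region 3585 bp from the gene, with 40.1, 33.5, 55.1 and 58.3 CPM on days 6 and 7, against 5.23, 6.28, 13.7 and 14.4 CPM on days 2 and 3 (log2 change 2.35 ± 0.147, edgeR adjusted p = 2.38e-20). Hes5, a Notch target that holds back neuronal differentiation, had 73.4, 72.4, 104 and 109 CPM on days 6 and 7, against 41.6, 48.9, 41.4 and 47.9 CPM on days 2 and 3 (log2 change 0.97 ± 0.082, edgeR adjusted p = 2.36e-12). Pax3, a paired box gene of the dorsal neural tube and of somites, had 204, 182, 289.6 and 317 CPM on days 6 and 7, against 96.8, 99.2, 154 and 147 CPM on days 2 and 3 (log2 change 0.99 ± 0.064, edgeR adjusted p = 2.08e-15). At Neurog2, Hes5 and Pax3 the 2 libraries of day 7 were above those of day 6. Sox21, a SoxB gene of neural progenitors, had 129, 134, 195 and 199.7 CPM on days 6 and 7, against 80.2, 81.6, 85.9 and 81.7 CPM on days 2 and 3 (log2 change 0.97 ± 0.065, edgeR adjusted p = 8.02e-15). Sox5, which spans many regions, separated higher at 31 and lower at 6 of 78 regions and changed by 0.89. The POU gene Pou3f2 of neural cells had 163, 164, 209.5 and 237 CPM on days 6 and 7, against 107, 122.5, 119.5 and 129 CPM on days 2 and 3 (log2 change 0.68 ± 0.066, edgeR adjusted p = 7.68e-11). Pax8, a gene of kidney and hindbrain fields, had a log2 change of 1.15 with the 50 kb window, but 0.07 and no call with a window of 10 kb.

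These genes belong to families whose other members went either way. Of 19 Sox genes 4 separated higher and 3 lower, with a median log2 change of -0.03, and 5 were lower with cyclic loess or without day 6 replicate 1. Of 15 POU genes 4 separated higher and 4 lower, with a median of -0.19, and 2 were higher with library-size scaling. Of 9 Pax genes 4 separated higher and 2 lower, and 2 were higher with the 10 kb window. Of 16 proneural and neural bHLH genes, Neurog2 among them, 4 separated higher and 3 lower, with a median of 0.04, against 3 higher and 5 lower with the 10 kb window. Over all genes, 16.1% separated higher and 15.4% lower.

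Zic genes encode zinc finger factors of the neural plate. Values are given for Zic1, Zic2, Zic4 and Zic5 alone, each of which separated higher, and no count is given for the family. Zic4 (chromosome 9, 91365631 to 91389351) had 231, 234, 331 and 365 CPM on days 6 and 7, against 85.7, 100.5, 106 and 116 CPM on days 2 and 3 (log2 change 1.48 ± 0.073, edgeR adjusted p = 1.84e-18). Its neighbour Zic1, which faces it on chromosome 9, changed by 0.59. On chromosome 14, Zic5 changed by 1.06 and Zic2 by 0.42. A run of 11 separating regions, 14.5 kb long, covered Zic1 and Zic4 between 91364869 and 91379335 on chromosome 9. A region inside the span of Zic4 had 56.6, 58.1, 113 and 128 CPM on days 6 and 7, against 5.54, 7.06, 19.96 and 15.9 CPM on days 2 and 3 (log2 change 2.96 ± 0.127, edgeR adjusted p = 3.75e-27).

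Genes of the caudal epiblast and of neuromesodermal progenitors did not line up on either side. Of 17, 4 separated higher (23.5%), or 3 with the 10 kb window, and 2 lower (11.8%), beside 16.1% and 15.4% of all genes. Their summed level was 1048 to 1103 CPM on days 6 and 7, against 668 to 1237 CPM on days 2 and 3. The early range was wide because day 2 lay below every late library, with 668 and 713 CPM, and day 3 above them, with 1181 and 1237 CPM. The 2 lower genes were Wnt8a and Fgf17. Cdx2, a homeobox gene that drives the trunk and tail, had 98.4, 94.3, 85.7 and 93.4 CPM on days 6 and 7, against 66.8, 60.7, 118 and 126 CPM on days 2 and 3, so that day 3 lay above and day 2 below every late library. Cdx1 had 33.2, 34.6, 24.6 and 23.3 CPM on days 6 and 7, against 14.9, 14.3, 46.1 and 54.3 CPM on days 2 and 3 and Cdx4 30.4, 25.6, 31.04 and 30.5 CPM on days 6 and 7, against 21.9, 17.9, 44.4 and 41.9 CPM on days 2 and 3, in the same order. None of the 3 Cdx genes was called (0.08, 0.07 and 0.00 for Cdx1, Cdx2 and Cdx4), and the sign at each of the 3 turned under some alternative. Sp5, a direct Wnt target, was called higher with a log2 change of 0.58, but day 3 had its highest libraries and the call was lost with each side as 1 group of 4 (0.32).

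T, the Brachyury gene of primitive streak and tail bud (chromosome 17, 8434423 to 8442496), had 32.2, 26.4, 37.4 and 41.4 CPM on days 6 and 7, against 14.2, 15.6, 18.5 and 17.3 CPM on days 2 and 3 (log2 change 1.06 ± 0.112, edgeR adjusted p = 7.13e-10). Hes3, a Hes gene of neural progenitors and the isthmus, had 74.8, 66.1, 100.2 and 116 CPM on days 6 and 7, against 41.1, 49.8, 41.9 and 37.96 CPM on days 2 and 3 (log2 change 1.03 ± 0.094, edgeR adjusted p = 1.52e-11), and Greb1 had 116, 119.7, 134 and 152 CPM on days 6 and 7, against 48.9, 59.2, 105 and 108 CPM on days 2 and 3 (log2 change 0.78 ± 0.072, edgeR adjusted p = 2.52e-11). Sox2, whose overlap with T defines neuromesodermal progenitors, had 156, 163, 207 and 267 CPM on days 6 and 7, against 152, 173, 153 and 152 CPM on days 2 and 3. It was called higher (log2 change 0.30 ± 0.069, edgeR adjusted p = 0.000466), though the day 2 libraries overlapped those of day 6 and the call was lost with cyclic loess (0.06), the 10 kb window (0.06) and each side as 1 group of 4 (0.33). At T the largest gain was 38109 bp from the gene, with 9.91, 9.17, 16.02 and 20.03 CPM on days 6 and 7, against 0.418, 0.784, 2.55 and 1.44 CPM on days 2 and 3. With the 10 kb window no T-box gene separated higher, T included. Wnt8a, a ligand gene of the early primitive streak, had 31.7, 33.1, 29.9 and 27.99 CPM on days 6 and 7, against 75.1, 83.7, 75.3 and 71.4 CPM on days 2 and 3 (log2 change -1.32 ± 0.088, edgeR adjusted p = 6.72e-15). Days 2 and 3 were level at Wnt8a. The other lower gene, Fgf17, lay at -0.44 and lost its call with cyclic loess, with DESeq2, with each side as 1 group of 4, and without any of 6 libraries, the exceptions being day 2 replicate 1 and day 3 replicate 2. Of 22 genes of presomitic and paraxial mesoderm, 5 separated higher (22.7%) and 2 lower (9.09%), beside 16.1% and 15.4% of all genes. With library-size scaling 2 were higher and 3 lower, and DESeq2 gave 3 higher. Cited1 had 19.9, 24.1, 24.3 and 25.2 CPM on days 6 and 7, against 12.5, 12.2, 12.7 and 12.6 CPM on days 2 and 3 (log2 change 0.89 ± 0.124, edgeR adjusted p = 1.96e-07). The segmentation gene Ripply2 had 26.8, 36.4, 23.8 and 25.8 CPM on days 6 and 7, against 49.1, 40.7, 62.1 and 52.5 CPM on days 2 and 3 (log2 change -0.88 ± 0.103, edgeR adjusted p = 7.3e-09), but only -0.14 and no call with the 10 kb window.

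Hox genes, which set position along the body axis, changed by paralogue group. In groups 1 to 4, 11 of 12 genes were called higher and none lower, and 5 separated (41.7%), with a median log2 change of 1.04. In groups 5 to 9, 13 of 15 genes could be tested, all 13 were called higher and 6 separated (46.2%), with a median of 0.75. In groups 10 to 13, 3 of 12 were called higher and 6 lower, of which 2 separated higher and 5 lower (1 and 6 with library-size scaling), with a median of -0.53. Over all genes, 27.1% were called higher and 24.4% lower, and 16.1% separated higher and 15.4% lower. In groups 10 to 13 the separating share was thus near that of all genes on the higher side (16.7%) and above it on the lower side (41.7%). The medians of the 3 Hox lists kept their signs under library-size scaling, cyclic loess and DESeq2. Neighbouring Hox genes lie close together, so a region between them can count for either. The RefSeq span of Hoxa3 runs over Hoxa4 and Hoxa5, and that of Hoxd3 runs over the start of Hoxd4.

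Hoxd3 (chromosome 2, 74711993 to 74748271) had 187, 175, 261 and 283 CPM on days 6 and 7, against 49.2, 46.4, 103 and 110.0 CPM on days 2 and 3 (log2 change 1.64 ± 0.071, edgeR adjusted p = 1.21e-19). At Hoxd3 14 of 19 tested regions separated higher and none lower, and regions near Hoxd4 may be among them. Hoxc5 had 43.9, 50.2, 75.1 and 86.8 CPM on days 6 and 7, against 6.79, 7.71, 32.3 and 33.1 CPM on days 2 and 3 (log2 change 2.00 ± 0.103, edgeR adjusted p = 4.39e-18), all from 1 region. Hoxc4 had 147, 145, 203 and 239 CPM on days 6 and 7, against 33.6, 38.8, 121 and 139 CPM on days 2 and 3 (log2 change 1.39 ± 0.074, edgeR adjusted p = 1.35e-17). At each of the 3 genes day 3 lay between day 2 and day 6, and day 7 was highest. Hoxa4, Hoxb4 and Hoxa9 rose too, by 1.77, 1.02 and 1.31 on the log2 scale, but their day 3 libraries overlapped the late ones. Hoxb4 had 58.3, 58.8, 59.7 and 86.2 CPM on days 6 and 7, against 14.5, 16.5, 63.8 and 68.8 CPM on days 2 and 3, and treating each side as 1 group of 4 took away its call. Hoxb1, of the most anterior group, had 41.95, 49.1, 52.5 and 69.1 CPM on days 6 and 7, against 51.3, 60.8, 62.8 and 67.4 CPM on days 2 and 3 and was not called (log2 change -0.21 ± 0.091, edgeR adjusted p = 0.0551). At the 5′ end, Hoxa10 rose by 1.11 and Hoxc10 by 0.49. Hoxd11 fell, with 8.15, 9.44, 8.46 and 6.04 CPM on days 6 and 7, against 17.8, 22.2, 11.5 and 16.02 CPM on days 2 and 3 (log2 change -1.03 ± 0.163, edgeR adjusted p = 2.11e-06), and so did Hoxb13 (-0.70), Hoxc11 (-0.64), Hoxc12 (-0.60) and Hoxc13 (-0.60).

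**Figure D3:**
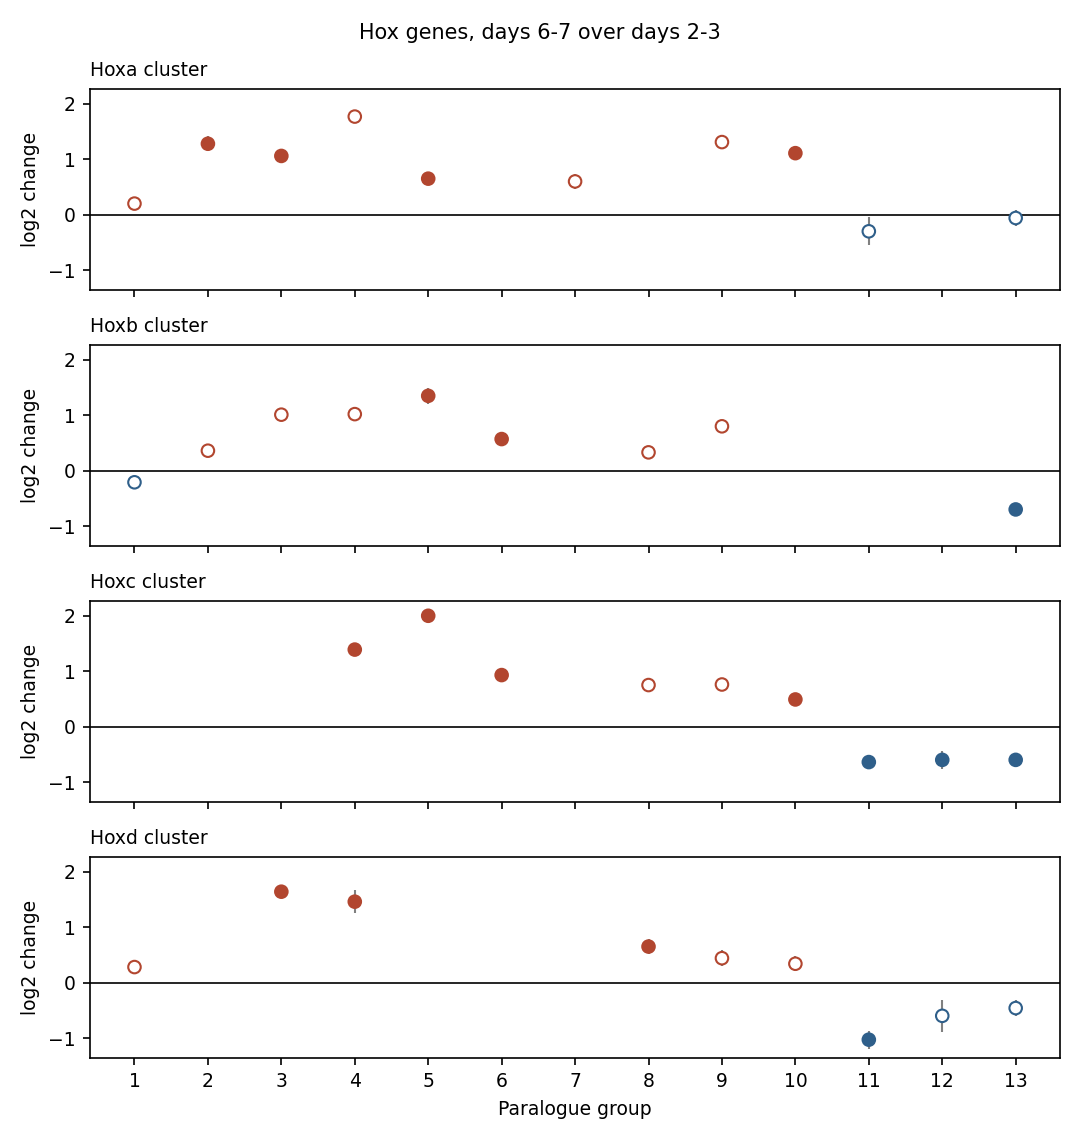
Log2 change of each tested Hox gene (days 6 and 7 over days 2 and 3, bars are standard errors) by paralogue group in the 4 clusters. Filled points are genes whose libraries did not overlap, red higher and blue lower, and every separating gene of groups 11 to 13 lies below 0 while those of groups 2 to 10 lie above it.

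Cofactors of Hox proteins were on the higher side as well. Of the 9 Meis, Pbx and Prep genes 4 separated higher and none lower, or 2 with cyclic loess. Meis1 had 280.0, 268, 347 and 386 CPM on days 6 and 7, against 173, 159, 193 and 189 CPM on days 2 and 3 (log2 change 0.83 ± 0.06, edgeR adjusted p = 6.06e-14) and Meis3 had 78.5, 73.9, 94.7 and 115 CPM on days 6 and 7, against 32.3, 28.9, 50.96 and 57.7 CPM on days 2 and 3 (log2 change 1.13 ± 0.087, edgeR adjusted p = 2.53e-13). In both, day 7 was above day 6. The other homeobox families and the forkhead family differed in their counts, beside 16.1% higher and 15.4% lower over all genes. Nkx genes separated lower at 5 of 14 and higher at none, with 3 lower under cyclic loess and 1 higher with the 10 kb window. LIM homeobox genes separated lower at 5 of 12 and higher at 1, and Dlx and Msx genes lower at 4 of 9 and higher at 1. The higher LIM homeobox gene did not separate with library-size scaling, with cyclic loess, with each side as 1 group of 4, or without day 2 replicate 2 or day 3 replicate 1, and without day 3 replicate 2 the higher Dlx and Msx genes were 2. Irx genes separated higher at 1 and lower at 1 of 6, 16.7% each and so near the shares of all genes. Among the Irx genes 2 were higher without day 6 replicate 1, and 2 were lower and none higher with the 10 kb window. Forkhead genes separated lower at 12 of 43 and higher at 4, with 14 lower under library-size scaling and cyclic loess. Foxi3, a gene of cranial placodes, had 27.2, 32.7, 25.2 and 20.8 CPM on days 6 and 7, against 93.3, 91.5, 44.5 and 44.7 CPM on days 2 and 3 (log2 change -1.29 ± 0.093, edgeR adjusted p = 5.05e-14), and Foxr2 had 9.91, 8.07, 6.12 and 6.78 CPM on days 6 and 7, against 38.4, 34.1, 13.6 and 15.9 CPM on days 2 and 3 (log2 change -1.59 ± 0.159, edgeR adjusted p = 1.53e-10). At Foxi3 and Foxr2 day 3 lay between day 2 and the late days. Foxb1, a gene of the caudal neural tube and diencephalon, went up with 107, 104, 150.4 and 176 CPM on days 6 and 7, against 58.2, 66.3, 72.5 and 75.3 CPM on days 2 and 3 (log2 change 0.95 ± 0.072, edgeR adjusted p = 1.37e-13).

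Several promoters of these genes held separating regions, and 4 are shown with the 250 bases before the RefSeq start (build GRCm38.p6, which is mm10) because they stand for the groups above. Capitals mark matches on either strand to the octamer of POU factors (ATGCAAAT), the RBPJ word of Notch signalling (TGGGAA), the NF-Y box (CCAAT), the GC box (GGGCGG), the E-box word CAGCTG or the TEAD word (GGAATG). Such a match is a description of letters and not a bound site. The Zfp42 promoter lies on the minus strand at chr8:43307010-43307259, that of Fgf4 on the plus strand at chr7:144861136-144861385, that of Hes5 on the plus strand at chr4:154960673-154960922 and that of Hoxa3 on the minus strand at chr6:52213068-52213317.
Zfp42: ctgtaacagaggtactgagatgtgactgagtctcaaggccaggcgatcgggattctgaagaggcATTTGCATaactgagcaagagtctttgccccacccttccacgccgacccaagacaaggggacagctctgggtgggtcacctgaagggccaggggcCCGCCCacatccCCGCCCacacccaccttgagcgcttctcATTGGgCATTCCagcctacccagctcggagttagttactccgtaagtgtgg
Fgf4: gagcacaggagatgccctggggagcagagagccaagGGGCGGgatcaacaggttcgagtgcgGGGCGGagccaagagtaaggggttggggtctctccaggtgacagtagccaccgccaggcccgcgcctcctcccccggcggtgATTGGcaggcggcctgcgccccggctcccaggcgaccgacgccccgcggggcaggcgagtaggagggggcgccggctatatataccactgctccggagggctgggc
Hes5: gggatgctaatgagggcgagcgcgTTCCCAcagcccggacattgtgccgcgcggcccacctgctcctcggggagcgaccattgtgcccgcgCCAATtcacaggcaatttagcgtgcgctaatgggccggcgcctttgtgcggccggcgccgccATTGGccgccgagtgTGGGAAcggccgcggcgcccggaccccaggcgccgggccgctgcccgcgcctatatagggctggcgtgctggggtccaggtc
Hoxa3: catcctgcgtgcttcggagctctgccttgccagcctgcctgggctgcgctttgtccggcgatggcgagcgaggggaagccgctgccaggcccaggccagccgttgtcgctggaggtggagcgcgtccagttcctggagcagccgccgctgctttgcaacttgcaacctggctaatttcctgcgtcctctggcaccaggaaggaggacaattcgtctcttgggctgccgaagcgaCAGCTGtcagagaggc

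The region over the Zfp42 promoter had 9.43, 9.99, 12.6 and 7.37 CPM on days 6 and 7, against 30.7, 31.9, 28.3 and 37.96 CPM on days 2 and 3 (log2 change -1.69 ± 0.148, edgeR adjusted p = 1.59e-14), and the sequence holds the octamer, read on the other strand, at -186 from the start. The Fgf4 promoter region had 4.87, 5.75, 2.61 and 3.24 CPM on days 6 and 7, against 12.5, 14.9, 9.77 and 10.97 CPM on days 2 and 3 (log2 change -1.61 ± 0.204, edgeR adjusted p = 2.45e-09). The Hes5 promoter region had 21.97, 25.7, 33.02 and 28.7 CPM on days 6 and 7, against 10.98, 19.2, 8.92 and 14.6 CPM on days 2 and 3 (log2 change 1.05 ± 0.153, edgeR adjusted p = 8.12e-08), with the RBPJ word at -226 and -82. The region near the outer Hoxa3 start (52213253 to 52213566) overlapped only the part of the printed window farthest from the start. It did not cover the CAGCTG word at -16. This region had 7.67, 5.199, 11.5 and 13.3 CPM on days 6 and 7, against 0, 0, 0.679 and 0.577 CPM on days 2 and 3 (edgeR adjusted p = 1.19e-18). It had no counts on day 2, so no fold change is given. The octamer stood in 2.19% of 1324 promoter windows with a lower region, 1.14% of 1674 with a higher one and 1.43% of 13296 with any tested region. The RBPJ word stood in 22.5% of windows with a higher region, 21.8% with a lower one and 20.2% with any tested region. Sox core words (AACAAT) stood in 6.99% of windows with a higher region and 3.55% with a lower one, against 4.75% with any tested region. Cdx words (TTTATNG, with N for any base) stood in 8.005%, 5.06% and 5.69% of these windows, in the same order. GC boxes stood in 53.4% of windows with a higher region, 62.4% with a lower one and 61.7% with any tested region. The mean share of G and C bases also differed, at 58.7%, 60.5% and 61.1% in that order, and its part in the word shares was not tested. Over all 18834 promoter windows of this length, the octamer stood in 1.55%, the RBPJ word in 21.0%, the Sox word in 7.04%, the GC box in 46.6%, the NF-Y box in 35.1%, CAGCTG in 12.6% and the TEAD word in 11.5%. For the comparison labelled d3_d6, the authors' deposited table of motifs in sequences listed as up had Hoxc9 in 30.1% of target and 8.8% of background sequences. The authors' deposited table for those listed as down had the OCT4-SOX2-TCF-NANOG motif in 16.8% of target and 2.59% of background sequences. The sources used here do not say which of the 2 days up and down refer to.

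Hedgehog signalling patterns the ventral spinal cord and the somites. Of 14 tested genes of the pathway 8 separated higher (57.1%) and 2 lower (14.3%), beside 16.1% and 15.4% of all genes. The median was 0.45, and the counts were the same under library-size scaling, cyclic loess and DESeq2. The 2 lower genes were ligands, Dhh and Shh. Shh, the ligand of floor plate and notochord, had 20.5, 26.4, 22.9 and 16.5 CPM on days 6 and 7, against 34.4, 29.2, 28.96 and 34.8 CPM on days 2 and 3 (log2 change -0.56 ± 0.12, edgeR adjusted p = 0.000195), and Dhh had 10.7, 12.2, 12.4 and 14.3 CPM on days 6 and 7, against 24.7, 31.9, 20.7 and 16.7 CPM on days 2 and 3. The higher ones included coreceptors and the Gli factors. Gas1, a membrane protein that presents the ligand, had the lowest p of them (chromosome 13, 60174405 to 60177535), with 203, 198, 300.2 and 357 CPM on days 6 and 7, against 73.4, 75.1, 90.5 and 109.5 CPM on days 2 and 3 (log2 change 1.58 ± 0.072, edgeR adjusted p = 2.16e-19). Boc, another coreceptor gene, had 138, 138, 181 and 196 CPM on days 6 and 7, against 65.2, 70.2, 86.6 and 85.4 CPM on days 2 and 3 (log2 change 1.08 ± 0.065, edgeR adjusted p = 4.16e-16). The factor genes Gli2 and Gli3 rose by 0.95 and 0.87 and the receptor gene Ptch1 by 0.69.

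At Gas1, 14 of 17 tested regions separated higher and none lower. The longest run of higher regions in the genome, 12 in a row over 78.9 kb, lay beside it at 60069128 to 60148076 on chromosome 13. The region of this run nearest to Gas1, 26329 bp away, had 43.1, 46.1, 80.7 and 97.8 CPM on days 6 and 7, against 3.87, 4.32, 11.04 and 9.24 CPM on days 2 and 3 (log2 change 3.28 ± 0.131, edgeR adjusted p = 2.78e-28). Across the 12 regions the log2 changes lay between 1.14 and 4.1. Another run of 8 higher regions followed at 60178492 to 60267895, beyond the gene. The next longest runs had 11 regions each, that of the Zic genes and 1 of 44.9 kb beside the carboxypeptidase genes Cpa4, Cpa5 and Cpa1 at 30591868 to 30636772 on chromosome 6. On the autosomes lower regions formed shorter runs. The longest had 7 regions, at Sptbn4 on chromosome 7 from 27395462 to 27404824, near Vmn2r96 on chromosome 17 and among predicted genes on chromosome 14 from 41492215 to 42055713. A run of 14 lower regions lay on the Y chromosome from 90799245 to 90813009. The genes on chromosomes 14, 17 and Y belong to families of near-identical copies between which reads can be split, so these runs are uncertain.

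**Figure D4:**
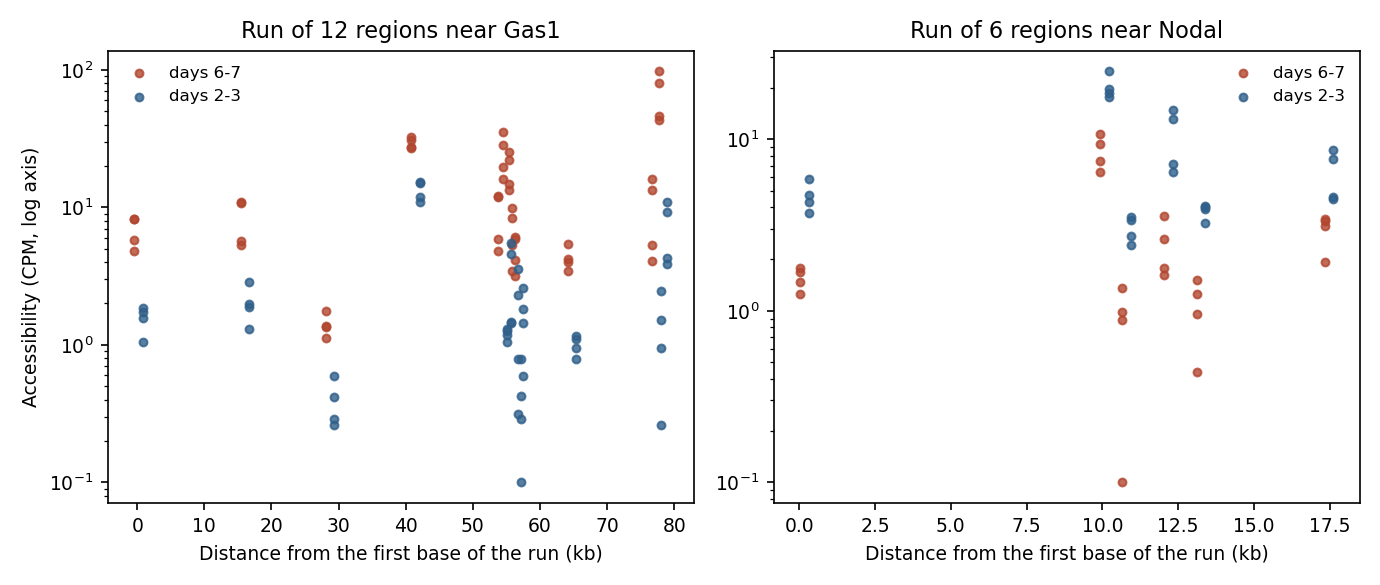
Accessibility in CPM (log axis) of each library at the 12 regions of the run near Gas1 (left) and the 6 of the run near Nodal (right), by distance in kb from the first base of the run. Points at 0 CPM are drawn at the bottom of the axis, and in both runs the 4 libraries of days 6 and 7 (red) and the 4 of days 2 and 3 (blue) do not overlap at any region.

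Wnt and Fgf ligand genes changed in both directions. Of 19 Wnt ligand genes 2 separated higher (10.5%) and 5 lower (26.3%), beside 16.1% and 15.4% of all genes. With each side as 1 group of 4 the lower ones were 3, and with cyclic loess or the 10 kb window 1 was higher. The median of -0.14 was -0.15 to -0.21 under the other scalings. Wnt1, the ligand of the midbrain and the dorsal neural tube, had 46.6, 43.2, 62.4 and 69.7 CPM on days 6 and 7, against 18.3, 17.8, 18.7 and 23.1 CPM on days 2 and 3 (log2 change 1.5 ± 0.107, edgeR adjusted p = 4.33e-14). Wnt10b had 7.43, 8.76, 5.13 and 4.12 CPM on days 6 and 7, against 16.9, 22.5, 18.3 and 17.8 CPM on days 2 and 3 (log2 change -1.61 ± 0.177, edgeR adjusted p = 1.55e-09). At Wnt1 day 7 was above day 6 and at Wnt10b below it. Wnt feedback and effector genes separated higher at 7 (25.9%) and lower at 3 (11.1%) of 27, and at 7 and 5 with library-size scaling. Nkd1, a feedback inhibitor, had 148, 144, 159.7 and 189.6 CPM on days 6 and 7, against 58.8, 83.02, 122 and 131 CPM on days 2 and 3 (log2 change 0.76 ± 0.083, edgeR adjusted p = 1.4e-09), with day 2 below day 3. The secreted antagonist gene Sfrp5 had 6.15, 6.704, 3.96 and 4.27 CPM on days 6 and 7, against 11.9, 14.3, 8.92 and 11.6 CPM on days 2 and 3 (log2 change -1.16 ± 0.184, edgeR adjusted p = 2.17e-06). Among receptor genes, Fzd9 rose by 1.11 and the coreceptor gene Lrp6 by 0.64. Of 22 Fgf ligand genes 2 separated higher (9.09%) and 7 lower (31.8%), with 5 to 7 lower under the other scalings. Fgf7, a ligand made by mesenchyme, had 10.7, 10.3, 10.5 and 9.72 CPM on days 6 and 7, against 3.97, 1.83, 3.06 and 3.17 CPM on days 2 and 3 (log2 change 1.76 ± 0.218, edgeR adjusted p = 2.05e-08) and had the largest change of either sign in the list. Feedback inhibitors of Fgf signalling differed in direction. Spry1 had 114, 104, 138 and 138 CPM on days 6 and 7, against 36.5, 41.5, 65.2 and 68.4 CPM on days 2 and 3 (log2 change 1.27 ± 0.072, edgeR adjusted p = 6.08e-17), and Spry4 had 32.5, 34.8, 22.04 and 24.8 CPM on days 6 and 7, against 35.5, 36.4, 55.3 and 58.7 CPM on days 2 and 3 (log2 change -0.69 ± 0.094, edgeR adjusted p = 1.12e-07), without a call in the 10 kb window.

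In the retinoic acid pathway, which patterns the spinal cord, 6 of 18 genes separated higher (33.3%) and 1 lower (5.56%). Over all genes the shares were 16.1% and 15.4%. Without day 3 replicate 2 or day 6 replicate 2, 2 genes of the pathway were lower. The receptor gene Rarb, itself a target of retinoic acid, had 311, 300.3, 398 and 452 CPM on days 6 and 7, against 173, 168, 192 and 176 CPM on days 2 and 3 (log2 change 1.02 ± 0.062, edgeR adjusted p = 4.16e-16). Rarg, the receptor gene of the caudal epiblast, had 65.3, 67.04, 59.8 and 62.3 CPM on days 6 and 7, against 97.5, 116, 94.1 and 117 CPM on days 2 and 3 (log2 change -0.74 ± 0.078, edgeR adjusted p = 7.32e-10). Crabp1, which encodes a carrier of retinoic acid inside cells, had 57.6, 51.4, 78.5 and 83.5 CPM on days 6 and 7, against 23.5, 23.7, 40.9 and 38.4 CPM on days 2 and 3 (log2 change 1.12 ± 0.085, edgeR adjusted p = 2e-13), and Aldh1a2, the enzyme gene that makes retinoic acid in mesoderm, had 50.02, 46.8, 66.7 and 81.2 CPM on days 6 and 7, against 32.2, 34.3, 40.6 and 36.1 CPM on days 2 and 3 (log2 change 0.74 ± 0.088, edgeR adjusted p = 9.5e-09). At Rarb, Crabp1 and Aldh1a2 day 7 was above day 6, and at Rarg no late library reached the lowest early one. Notch signalling had 9 of 26 genes higher and 2 lower, with 6 higher and 3 lower under cyclic loess. The 2 lower genes were the ligands Dll3 (-0.51) and Dll4 (-0.42), while the coactivator gene Maml3 rose by 0.68. BMP target genes Id1 and Id2 had log2 changes of 0.81 and 0.56. Among 8 regulators of trunk length and developmental timing, Nr6a1 had 265, 237, 301 and 327 CPM on days 6 and 7, against 141, 130.0, 205 and 214 CPM on days 2 and 3 (log2 change 0.74 ± 0.061, edgeR adjusted p = 1.8e-12) and Hmga2 164, 165, 192 and 199 CPM on days 6 and 7, against 84.3, 96.9, 117 and 121 CPM on days 2 and 3 (log2 change 0.79 ± 0.064, edgeR adjusted p = 1.15e-12). The RNA-binding protein gene Lin28a had 75.02, 75.4, 76.8 and 88.5 CPM on days 6 and 7, against 98.8, 119, 117 and 122 CPM on days 2 and 3 (log2 change -0.53 ± 0.075, edgeR adjusted p = 2.49e-07), in the opposite direction.

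Axon guidance genes differed between families. Regions assigned to netrins, Slits and their receptors separated higher at 157 and lower at 40 (6.81%) of 587, against 14.2% higher and 9.95% lower over all regions assigned to genes. Of 18 genes for netrins, Slits and their receptors 9 separated higher (50%) and 3 lower, with 9 or 10 higher under the other scalings. Slit1, a repellent ligand, had 145, 138, 213 and 229 CPM on days 6 and 7, against 67.7, 65.2, 71.9 and 64.8 CPM on days 2 and 3 (log2 change 1.39 ± 0.067, edgeR adjusted p = 1.1e-18). Dcc, the netrin receptor gene, had 184, 167, 244 and 263 CPM on days 6 and 7, against 90.6, 72.4, 116 and 108 CPM on days 2 and 3 (log2 change 1.14 ± 0.07, edgeR adjusted p = 6.28e-16), with 20 of 53 tested regions separating higher. At Slit1 and Dcc day 7 was above day 6. Unc5b, another netrin receptor gene that is known for its part in vessels, had 62.6, 67.5, 74.7 and 80.3 CPM on days 6 and 7, against 110.3, 122, 94.96 and 108 CPM on days 2 and 3 (log2 change -0.61 ± 0.072, edgeR adjusted p = 6.36e-09). Semaphorin, plexin and neuropilin genes separated higher at 8 (25.8%) and lower at 4 (12.9%) of 31, beside 16.1% and 15.4% of all genes. They had 5 higher under library-size scaling and 2 lower with the 10 kb window. Of the semaphorins, Sema3a had 271, 249, 326 and 344 CPM on days 6 and 7, against 91.4, 78.6, 199 and 184 CPM on days 2 and 3 (log2 change 1.21 ± 0.065, edgeR adjusted p = 1.78e-17) and Sema3e had 143, 142, 119 and 125 CPM on days 6 and 7, against 269, 235, 184 and 179.7 CPM on days 2 and 3 (log2 change -0.70 ± 0.062, edgeR adjusted p = 9.8e-12). At Sema3a day 3 lay between day 2 and the late days. Eph receptor and ephrin genes separated higher at 4 (18.2%) and lower at 2 (9.09%) of 22. The lower ones were 7 with cyclic loess, 6 with library-size scaling, and 4 without day 3 replicate 1 or day 7 replicate 2. Collagen genes separated higher at 14 and lower at 4 of 43, with Col14a1, a gene of fibril-associated collagen, at 103, 95.9, 138 and 144 CPM on days 6 and 7, against 38.4, 32.4, 56.3 and 53.8 CPM on days 2 and 3 (log2 change 1.42 ± 0.076, edgeR adjusted p = 1.65e-17). Protocadherins separated lower at 18 of 66 and higher at none, but cyclic loess left 7 lower and 1 higher, a smaller share lower than over all genes. Without day 2 replicate 1 or day 3 replicate 2, 1 was higher, and without day 6 replicate 2, 2 were. Pcdh1 had 139.9, 129, 127 and 134 CPM on days 6 and 7, against 265, 257, 189 and 199 CPM on days 2 and 3 (log2 change -0.77 ± 0.061, edgeR adjusted p = 7.68e-13). Glutamate receptor genes separated lower at 8 of 18 and higher at 2, and potassium channel genes lower at 23 of 90 and higher at 8, or 28 and 5 with library-size scaling. Olfactory receptor genes, of which 491 of 1106 could be tested, separated lower at 116 and higher at 28, while cyclic loess gave 65 and 47. Clustered protocadherins and olfactory receptors have near-identical copies, so their counts are uncertain.

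**Figure D5:**
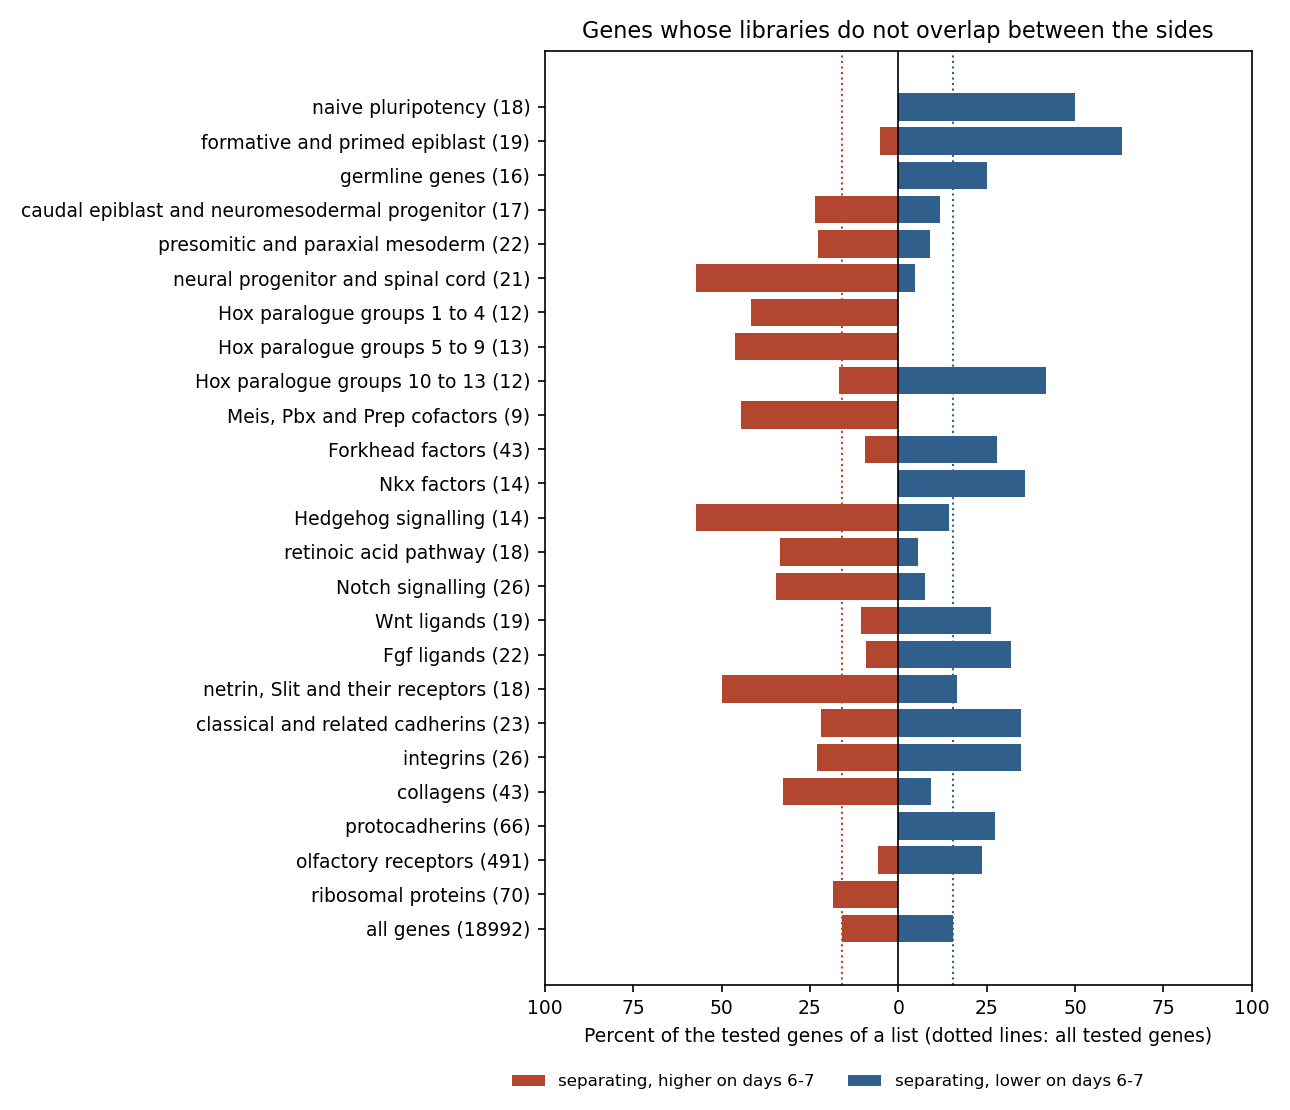
Percent of the tested genes of 24 lists, and of all tested genes, whose libraries separated higher (red, to the left) or lower (blue, to the right) on days 6 and 7, with the number of tested genes in brackets and dotted lines at the 16.1% and 15.4% of all genes. The longest bars belong to neural genes and Hedgehog genes on the higher side and to epiblast and naive pluripotency genes on the lower side.

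Hairpins of microRNAs, small RNAs that silence transcripts through bases 2 to 8 (the seed), were looked up after other results were known. Of 1005 hairpins in the RefSeq table, 296 had a tested region within 1 kb, of which 42 had a region that separated higher and 50 a region that separated lower. Hairpins can share a region. Taking for each hairpin the region with the lowest p, there were 267 distinct regions, of which 34 separated higher and 39 lower. Over all tested regions, with no such choice by p, 15.4% separated higher and 10.3% lower. Mature sequences follow, with the seed in capitals, for microRNAs known from stem cells (mir-302 and mir-290), mesenchyme (mir-199a) and neural progenitors (mir-9).
mmu-miR-302b-3p: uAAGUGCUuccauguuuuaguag
mmu-miR-302d-3p: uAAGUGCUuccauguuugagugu
mmu-miR-290a-3p: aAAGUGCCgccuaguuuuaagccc
mmu-miR-199a-3p: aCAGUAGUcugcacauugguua
mmu-miR-9-5p: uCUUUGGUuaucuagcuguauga

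The mir-302 and mir-367 hairpins on chromosome 3, a cluster of pluripotent cells that lies inside Larp7, share 1 region, which had 13.1, 11.4, 10.3 and 8.396 CPM on days 6 and 7, against 43.2, 33.5, 21.4 and 17.9 CPM on days 2 and 3 (log2 change -1.35 ± 0.145, edgeR adjusted p = 1.59e-11). Their mature forms miR-302b-3p and miR-302d-3p have the same seed. The mir-290 hairpins on chromosome 7, of the main cluster of naive stem cells, had a region with 3.28, 5.75, 3.15 and 2.36 CPM on days 6 and 7, against 13.4, 13.99, 10.4 and 14.7 CPM on days 2 and 3 (log2 change -1.89 ± 0.211, edgeR adjusted p = 5.49e-11). Every early library lay above every late one at both clusters, and at mir-302 day 3 lay between day 2 and the late days. Mir199a-2, a hairpin of mesenchyme inside Dnm3 on chromosome 1, had 8.31, 10.9, 11.6 and 12.96 CPM on days 6 and 7, against 0.418, 0.262, 1.27 and 1.44 CPM on days 2 and 3 (log2 change 3.95 ± 0.278, edgeR adjusted p = 3.32e-18). Mir9-1 and Mir9-2, hairpins with the same mature miR-9-5p, each had 1 separating region, in opposite directions. Of 3 tested regions within 1 kb of Mir9-2 on chromosome 13, only 1 separated. It had 11.2, 11.9, 23.6 and 20.2 CPM on days 6 and 7, against 3.03, 2.09, 3.99 and 2.31 CPM on days 2 and 3 (log2 change 2.44 ± 0.194, edgeR adjusted p = 4.66e-16). The only tested region within 1 kb of Mir9-1 on chromosome 3 had 2.64, 2.74, 1.53 and 2.06 CPM on days 6 and 7, against 9.51, 12.7, 4.42 and 5.77 CPM on days 2 and 3 (log2 change -1.78 ± 0.252, edgeR adjusted p = 4.62e-08). The Mir27b, Mir24-1 and Mir3074-1 hairpins on chromosome 13 share a region inside Fancc with 32.6, 31.2, 29.96 and 36.5 CPM on days 6 and 7, against 0.523, 0.654, 13.6 and 13.6 CPM on days 2 and 3 (log2 change 3.52 ± 0.185, edgeR adjusted p = 1.65e-23), where day 3 lay between day 2 and the late days.

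Genes with many tested regions held the most separating ones. Over all regions assigned to genes, 14.2% separated higher and 9.95% lower. Auts2, a neurodevelopmental gene, had 39 of 110 tested regions higher and 5 lower, and changed by 0.71 as a whole. In Lrmda 33 of 65 regions were higher and 1 lower, and its sum was 362, 344, 513 and 616 CPM on days 6 and 7, against 107, 111, 332 and 283 CPM on days 2 and 3 (log2 change 1.28 ± 0.066, edgeR adjusted p = 4.39e-18). Anks1b had the most lower regions, 21 of 68 (30.9%), with 7 higher (10.3%). Inside its span, 1 region had 17.3, 14.8, 27.1 and 28.1 CPM on days 6 and 7, against 3.35, 3.399, 3.99 and 1.73 CPM on days 2 and 3 and another 3.595, 4.38, 2.43 and 2.504 CPM on days 6 and 7, against 17.6, 14.6, 13.8 and 12.3 CPM on days 2 and 3. Macrod2 had 33 regions higher and 14 lower of 133, the lower ones near their share over all assigned regions. Its sum had a small log2 change (0.23), and the sign turned with cyclic loess.

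Among the single regions with the largest changes, several were far from genes. A region 298118 bp from Nova1 (chromosome 12, 47117598 to 47117822) had 2.56, 1.505, 1.799 and 2.504 CPM on days 6 and 7, against 0, 0, 0 and 0 CPM on days 2 and 3. With no counts on days 2 and 3, it was at least 25.4-fold higher, taking 3 counts over those 4 libraries as the floor, which covers counting error only. One 577983 bp from Plekhb2 had 8.47, 6.57, 12.4 and 15.5 CPM on days 6 and 7, against 0, 0, 0.255 and 0.722 CPM on days 2 and 3 (edgeR adjusted p = 7.28e-20), again with no counts on day 2 and so with no fold change given. In the other direction, a region inside Klre1 (chromosome 6, 129565929 to 129566160) had 0.799, 0.684, 0.1799 and 0.295 CPM on days 6 and 7, against 7.004, 3.399, 6.71 and 7.36 CPM on days 2 and 3 (log2 change -3.84 ± 0.384, edgeR adjusted p = 1.68e-12), and one inside Bmi1, a Polycomb gene, had 0.959, 0, 0.2699 and 0.295 CPM on days 6 and 7, against 5.44, 5.75, 5.86 and 4.91 CPM on days 2 and 3 (log2 change -3.73 ± 0.415, edgeR adjusted p = 5.3e-11). In both of these, the late libraries were close to 0. Of the regions with peaks on days 6 and 7 alone, the most accessible lay 110951 bp from Zbtb18, a neural repressor gene, with 27.6, 21.6, 72.1 and 90.6 CPM on days 6 and 7, against 1.25, 1.44, 2.803 and 2.598 CPM on days 2 and 3 (log2 change 4.54 ± 0.166, edgeR adjusted p = 1.95e-29). Of those with peaks on days 2 and 3 alone, it was 1901 bp from Phc1, a Polycomb gene, with 7.43, 6.29, 6.75 and 5.01 CPM on days 6 and 7, against 45.1, 49.2, 19.8 and 18.8 CPM on days 2 and 3 (log2 change -2.22 ± 0.151, edgeR adjusted p = 8.61e-19).

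Outside all lists, the largest gains among genes of at least median abundance were at Gm11232, Gm815, Gprc5d, Slitrk6 and Pnoc. Gprc5d had 61.7, 50.8, 64.3 and 63.8 CPM on days 6 and 7, against 9.51, 9.68, 19.4 and 16.5 CPM on days 2 and 3 (log2 change 2.19 ± 0.102, edgeR adjusted p = 4.4e-19). Slitrk6, a membrane protein gene of neurons and the inner ear, had 36.99, 31.5, 68.7 and 65.99 CPM on days 6 and 7, against 10.5, 7.32, 13.8 and 11.98 CPM on days 2 and 3 (log2 change 2.15 ± 0.118, edgeR adjusted p = 2.55e-17), and Pnoc, which encodes the precursor of a neuropeptide, had 41.95, 37.9, 57.7 and 64.1 CPM on days 6 and 7, against 9.93, 7.84, 18.9 and 10.97 CPM on days 2 and 3 (log2 change 2.07 ± 0.124, edgeR adjusted p = 3.01e-16). At Gprc5d, Slitrk6 and Pnoc day 3 lay above day 2 and below every late library. Gm815 had 103, 94.95, 186 and 222 CPM on days 6 and 7, against 27.4, 24.3, 36.01 and 30.9 CPM on days 2 and 3 with the 50 kb window, but its log2 change of 2.26 became -0.84 with that of 10 kb. The largest losses, beside Esrp1, were at 9230019H11Rik, Cyp2j12, Vmn2r85 and Niban3. Niban3 had 18.8, 18.3, 15.3 and 17.8 CPM on days 6 and 7, against 48.5, 58.3, 42.7 and 50.8 CPM on days 2 and 3 (log2 change -1.51 ± 0.108, edgeR adjusted p = 4.33e-14), and Cyp2j12, a cytochrome P450 gene, had 16.1, 15.5, 13.4 and 15.3 CPM on days 6 and 7, against 75.2, 63.2, 35.8 and 29.6 CPM on days 2 and 3 (log2 change -1.67 ± 0.109, edgeR adjusted p = 3.25e-15). The call at 9230019H11Rik was lost with the 10 kb window, at -0.52.

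Markers of other cells were followed because the cultures may be mixed. Of 9 fibroblast markers 7 were called higher and none lower, and 5 separated higher and none lower. The 9 markers summed to 304 to 365 CPM on days 6 and 7 and 242 to 272 CPM on days 2 and 3. The 5 separating ones were Twist1 (0.62), Twist2 (0.95), Fap (1.07), Postn (0.93) and Col3a1 (0.40), of which the Twist genes are also active in mesoderm. Col1a1 and Col1a2, the defining collagens, were not called (-0.03 and -0.15), though Col1a2 was called lower with library-size scaling (-0.23), cyclic loess (-0.26) and the 10 kb window (-0.65). Endoderm markers summed to 273 to 304 CPM on days 6 and 7 and 269 to 316 CPM on days 2 and 3, with 1 of 8 higher. That was Ttr (2.58), which did not separate with the 10 kb window. Markers of lateral plate, heart and blood summed to 218 to 255 CPM on days 6 and 7 and 245 to 272 CPM on days 2 and 3, with Kdr higher (0.55) and Nkx2-5 (-0.87) and Pecam1 (-0.74) lower of 6 tested. Neural crest markers summed to 341 to 417 CPM on days 6 and 7 and 360 to 391 CPM on days 2 and 3, with Sox10 higher (0.82) and Tfap2a lower (-0.47) of 5. Without day 3 replicate 2 or day 6 replicate 2, 2 neural crest markers were higher, and without day 6 replicate 1, 2 were lower. Ribosomal protein genes separated higher at 13 of 70 (18.6%) and lower at none, beside 16.1% and 15.4% of all genes. Without day 6 replicate 2, 21 of them separated higher. Of the 70, 30 were called higher and 2 lower, with a median of 0.22, beside 27.1% and 24.4% called over all genes. Housekeeping genes separated higher at 6 of 18 (33.3%) and lower at none. Among them 9 were called higher and none lower, with a median of 0.24. The part of other cells or of library composition in the results above was not tested.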

How the data were processed

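ATAC-seq of 10 libraries was deposited as raw counts per merged region, made by the authors and not normalized. The authors' peak lists, 1 per library, give a fold enrichment ratio and a −log10 q-value per peak. Deposited motif tables give the percent of sequences with a motif and a natural log p, a score of the authors. The submitters' processing notes name HISAT2 2.1.0, SAMtools, MACS2 2.1.1.20160309, bedtools, HOMER 4.10 and mm10, without their roles; other settings are not given in the sources used here. The count files carry no coordinates. Row n was taken as the nth region of all peak lists merged with bedtools 2.31.1, chromosomes in character order, which matched in number; in numeric order 1095 to 9931 own-peak regions per library would hold 0 counts.

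Counts were tested in R 4.3.3 with edgeR 4.0.16 (filterByExpr, TMM factors, quasi-likelihood test, Benjamini-Hochberg adjustment) in 1 model of 10 libraries by group, with the mean of days 6 and 7 minus that of days 2 and 3 as the contrast. Standard errors are the log2 change over the root of F. The test was checked on simulated data. Regions were assigned to 21900 protein-coding genes of RefSeq (GRCm38.p6, that is mm10), 190641 of them within 50 kb of a span. Genes were named by rule: the 2 smallest p per list and direction, all Hox genes, and per direction the 5 largest changes outside the lists, the 5 regions with the largest change and the 5 genes with most separating regions. Cldn6, Grhl2, Otx2, Nanog, Tdrd1, Gli2, Gli3, Ptch1, the Cdx genes, Sp5, Sox2, Col1a1 and Col1a2, and the microRNA loci, were named after their values were seen. The groups, the 56 lists and the tests were chosen with earlier results of these data known. Alternatives covered scaling, DESeq2 1.42.0, limma 3.58.1, the filter, the model, the gene window, peak thresholds and leaving out each library. The result of 1 gene is not reported here. Per-sample columns were all used, and precision is limited by 2 libraries per day.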

Additional observations from a re-analysis of the deposited data

Results flagged for a closer look

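In 13 of 494 sides of 4 libraries tested (2.63%), 1 library stood far from the other 3 by Dixon's ratio. Its chance rate of about 1 in 20 holds for 4 libraries of a single group. Each side here holds 2 days, so the 2.63% cannot be set against that rate. At Zfp42, day 7 replicate 2 had 27.1 CPM, against 32.2 to 32.6 CPM in the other libraries of days 6 and 7. At Lin28a, Hoxb4 and Hoxa7 the same library was the high one, with 88.5, 86.2 and 22.5 CPM, above the highest of the others at 76.8, 59.7 and 18.6 CPM. Day 6 replicate 2 had 32.2 CPM at Itga3 (others 24.3 to 25.6), 28.7 CPM at Col3a1 (others 31.5 to 32.0), 25.6 CPM at Cdx4 (others 30.4 to 31.0) and 30.4 CPM at the region near Lmo4 (others 45.4 to 47.0). Among the libraries of days 2 and 3, day 3 replicate 2 had 23.1 CPM at Wnt1 (others 17.8 to 18.7), day 2 replicate 2 had 173 CPM at Sox2 (others 152 to 153), 60.9 CPM at Col16a1 (others 54.3 to 55.3) and 3.40 CPM at the region in Klre1 (others 6.71 to 7.36). At a region near Tmod1, day 3 replicate 1 had 0.255 CPM and the other 3 libraries of days 2 and 3 had 0. Causes of these single libraries were not tested.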

How the results depend on the processing

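With each side as 1 group of 4, 43662 regions were called in place of 69144, since the spread between days of a side then counts as error, and 16044 of the 44552 separating regions were called in all 4 day pairs. No other planned setting moved a total by more than 1.5 times. Leaving out 1 library gave 58709 to 66665 called regions, 43792 to 50693 separating regions, 8569 to 9527 called genes and 5894 to 7156 separating genes. Library-size scaling shifted the median log2 change of genes by -0.07 and took the share of higher genes among those called to 42.2%, in place of 52.6%, and among those separating to 40.7%, in place of 51.1%. Deviations of replicate 1 from the mean of its day had correlations of 0.002005 to 0.0736 between days, over the more abundant regions only. With the replicate block 69917 regions and 10649 genes were called, in place of 69144 and 9796, and 44499 regions and 6031 genes separated. An effect shared by libraries of the same replicate number was not tested by itself. Of 4143 values of named genes and regions under alternatives, 4055 kept sign and call, 57 lost and 17 gained a call. The sign turned at Gm815 with the 10 kb window (-0.84), at Macrod2 (-0.13) and Cdx2 (-0.0719) with cyclic loess, at Cdx1 with each side as 1 group (-0.15), at Cdx4 (-0.0669 with library size, -0.00321 with DESeq2, -0.0973 with each side as 1 group, -0.0745 to 0.0864 without single libraries) and at Col1a1 (0.0628 with the 10 kb window, -0.122 to 0.0705 without single libraries); none of Cdx1, Cdx2, Cdx4 and Col1a1 was called, and the cause was not tested. Peaks on a single side numbered 7760, 7629 with q below 0.001 and 7369 with a stricter overlap. Low regions are limited by the shallower replicate 2 libraries.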
